A study of Rattus norvegicus with 36 samples.

Results

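Expression of the troponin genes was examined in H9C2, a rat cardiac myoblast line, after transfection of miR-125b or one of its 3′ isomiRs. The genes were chosen by symbol as the annotated subunits of the troponin complex, and 8 of the 24275 genes in the joined count tables were members. They were the troponin T genes *Tnnt1*, *Tnnt2* and *Tnnt3*, the troponin I genes *Tnni1*, *Tnni2* and *Tnni3*, and the troponin C genes *Tnnc1* and *Tnnc2*. Cells received 25 nmol/L of a mimic control (MC), of miR-125b, of the lengthened isomiR Plus A or of a shortened one (Trim AGU, Trim AG, Trim A), each as a mimic, and were then kept for a day under hypoxia or normoxia. Hypoxic cells were in serum-free low-glucose DMEM and normoxic cells in fresh DMEM, so oxygen and medium cannot be told apart. Sample titles give the trimmed mimics as Trim 1, 2 and 3, read here by how many bases each had lost, and Plus A as miR-125b A. The labels place 36 samples in 12 groups of 3, and per-library counts of 33 samples in 11 groups were used, those of normoxic MC being not analysed here. No label says that the 3 libraries of a group came from separate cultures, so the p-values measure only the spread between these samples. All cells were of 1 line, with no untransfected group used here.

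Troponin sits on the thin filament of striated muscle and switches contraction on when calcium rises. Troponin C binds calcium, troponin I holds the filament off, and troponin T anchors both to tropomyosin. The paralogs mark muscle types. *Tnnt1* and *Tnni1* are the slow skeletal forms, *Tnni1* being used by the fetal heart as well. *Tnnt2* and *Tnni3* are the cardiac forms, *Tnnt3*, *Tnni2* and *Tnnc2* the fast skeletal forms, and *Tnnc1* serves slow skeletal and cardiac muscle.

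The mimics are printed because they are the agents compared, and they differ at the 3′ end alone. The miR-125b sequence is rat miR-125b-5p of RefSeq (GRCr8, chr11:29732588-29732609, plus strand), and the isomiR sequences apply to it the change each name states. Capitals mark the seed, bases 2 to 8 from the 5′ end, which all 5 mimics share.
miR-125b: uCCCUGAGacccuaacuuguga
Plus A: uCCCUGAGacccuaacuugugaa
Trim A: uCCCUGAGacccuaacuugug
Trim AG: uCCCUGAGacccuaacuugu
Trim AGU: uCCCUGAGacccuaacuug
Their lengths were 22, 23, 21, 20 and 19 bases. Trim AG and Trim AGU list the lost bases from the 3′ end, so the parts removed read GA and UGA from 5′ to 3′.

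Libraries held 28361216 to 42672584 counts (median 29923694), and the deepest group was Hypoxia Trim AG, at 39940087 to 42672584. Every troponin gene had 10 or more counts in all 33 libraries. Replicate 1 of Normoxia miR-125b and replicate 1 of Normoxia Plus A stood apart from their groups. For *Cav1*, a gene chosen after its values were seen, the Normoxia miR-125b libraries held 102, 282 and 263 counts scaled to a common library total (CPM) and the Normoxia Plus A libraries 269, 98.0 and 98.3 CPM. In hypoxia all miR-125b libraries had 241 to 246 CPM and all Plus A libraries 93.9 to 100.2 CPM. The labels were kept, and results on these groups are also given without both libraries where the call changes. Markers of differentiated skeletal muscle (7 of 10 listed genes found) summed to 731 to 769 CPM in Hypoxia MC and to 43.5 to 250.4 CPM in the other libraries. Of the cardiomyocyte markers found (9 of 10), *Actn2* in Hypoxia MC was the one group mean of at least 1 CPM, at 2.09 CPM, and *Nppa* and *Myl3* were at 0 there, so the defining genes of heart muscle cells were near absent. The smooth muscle list (5 of 5 found) summed to mean levels of 5885 to 16630 CPM, the fibroblast list (7 of 7) to 13850 to 43710, the endothelial list (1 of 4) to 1.02 to 4.38 and the macrophage list (4 of 4) to 1.26 to 3.21. The smooth muscle sum was lowest in Hypoxia MC and highest in Hypoxia Trim AG. The skeletal muscle sum was highest in Hypoxia MC, as were the mean levels of 5 of the troponin genes, but its order over the other groups was not that of every troponin gene. It was lowest in Hypoxia Trim AG (43.5 to 72.7 CPM), where *Tnnc2* was above its level with miR-125b, and highest among the normoxic groups in Normoxia Trim AGU (235.8 to 250.4 CPM), where *Tnnt3* and *Tnni2* had their lowest normoxic means. Most of the sum in Normoxia Trim AGU came from *Myh1* (mean 173 of 240.8 CPM). *Ckm* (1.07 CPM) and *Actn3* (0.398 CPM), of the same list, had their lowest group means there. The part of cell composition in the results was not tested.

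The troponin mRNAs of H9C2 were a mixture of slow, fast and cardiac forms, at levels far apart. On the deposited FPKM scale, which divides counts by gene length as well as by library total and allows levels of different genes to be compared, *Tnnt2* was the highest of the 8 in Hypoxia MC at 238 ± 8.8 FPKM (SD, n = 3), next to *Tnnc1* at 235 ± 5.5 FPKM. In the other 10 groups *Tnnc1* was the highest, at 151 to 299 FPKM. *Tnni2* and *Tnni3* were the lowest in Hypoxia MC, at 9.94 ± 0.49 and 2.27 ± 0.74 FPKM. Deposited FPKM values were 0.932 to 1.17 times those recomputed from counts and gene lengths, and the order of the 8 genes was the same in both within every group.

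**Figure D1:**
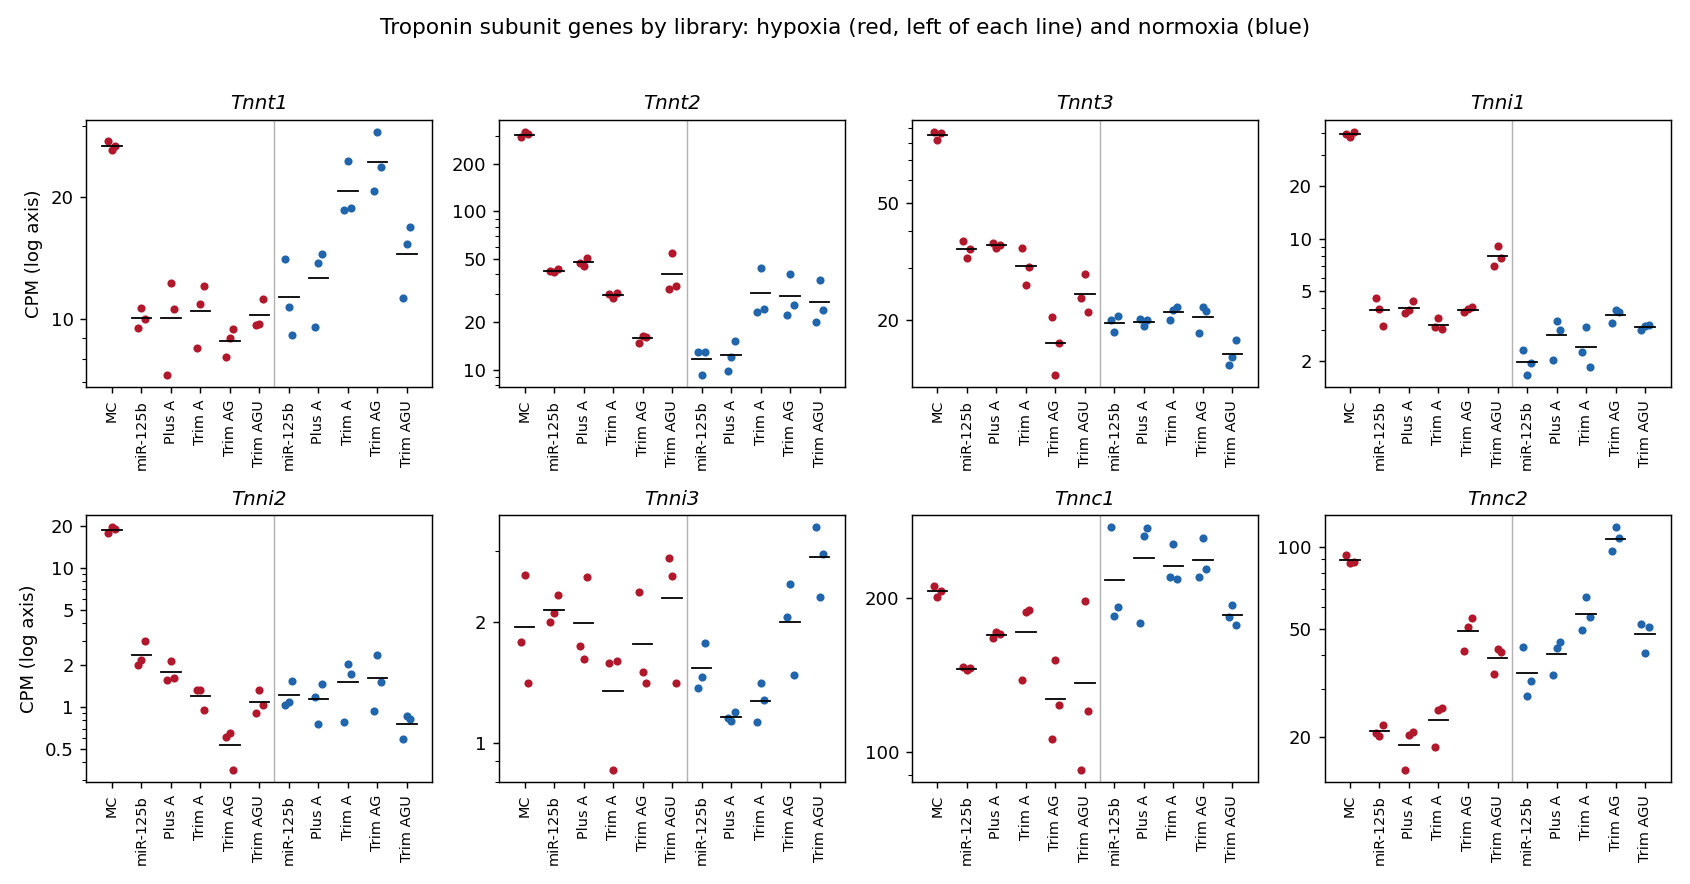
Level of each troponin gene in CPM (vertical log axis) in each of the 33 libraries, by group of mimic and oxygen (horizontal axis), with points for libraries and bars for group means. *Tnnt2* sits at 295 to 316 CPM in Hypoxia MC and at 9.22 to 54.3 CPM in every other library, whereas *Tnni3* stays between 0.855 and 3.43 CPM throughout.

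The first question was how miR-125b and its isomiRs changed the troponin genes against MC under hypoxia. Of 40 pairs of gene and mimic, 31 were called, all of them lower than MC. A call required a change of at least 1.5-fold and, in edgeR's quasi-likelihood test, a p below 0.05 after Benjamini-Hochberg adjustment over all genes tested. *Tnnt1*, *Tnnt2*, *Tnnt3*, *Tnni1*, *Tnni2* and *Tnnc2* were down-regulated under all 5 mimics, *Tnnc1* under Trim AG, and *Tnni3* under none. With miR-125b, 6 of the 8 members were called, against 21.9% of all genes called and 12.5% called lower. With Plus A the 6 members stood against 24.8% of all genes, and 14.4% lower. Trim A also had 6 members called, against 28.1% and 15.7%. Trim AG had 7, against 37.2% and 20.2%. Trim AGU had 6, against 23.8% and 12.4%. The median log2 fold change of the 8 members was lowest with Trim AG (-1.91), followed by Plus A (-1.81), miR-125b (-1.71), Trim A (-1.67) and Trim AGU (-1.44), while the median of all genes tested ran from -0.016 to 0.0033. In bulk RNA, fewer cells that express a gene and less RNA per cell cannot be told apart.

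**Figure D2:**
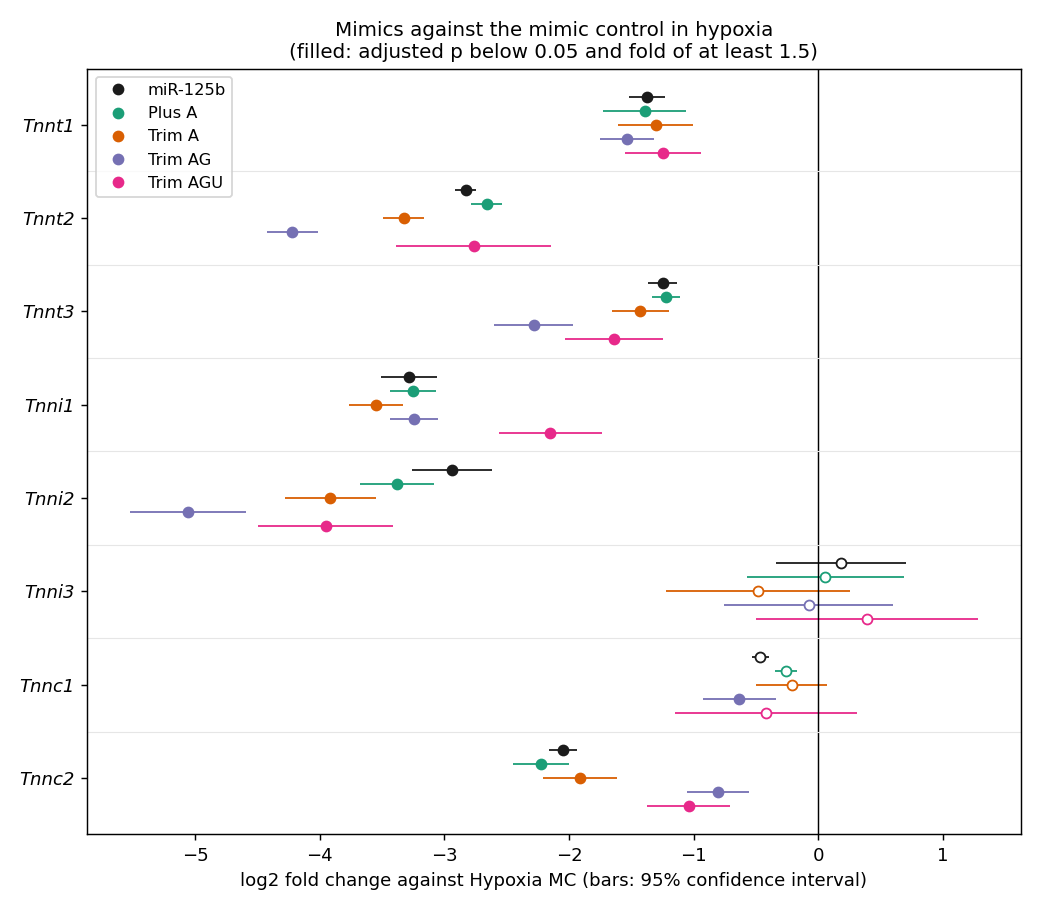
Log2 fold change of each troponin gene against MC under hypoxia (horizontal axis) for the 5 mimics, with 95% confidence intervals as lines and filled points for called genes. The *Tnni2* points run from -2.94 with miR-125b to -5.06 with Trim AG, and the *Tnni3* intervals all cross 0.

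The cardiac troponin T gene *Tnnt2* (ENSRNOG00000033734, chromosome 13, 52662996 to 52680990, plus strand, in the coordinates of the files, whose build is not given in the sources used here) fell the most among the troponin T genes. Its levels were 295, 316 and 309 CPM with MC under hypoxia and 41.8, 41.1 and 43.2 CPM with miR-125b. Plus A libraries had 47.3, 45.3 and 50.8 CPM, and Trim A libraries 29.8, 28.4 and 30.6 CPM. Trim AG libraries had 14.8, 16.4 and 16.1 CPM, and Trim AGU libraries 32.4, 54.3 and 33.9 CPM. Every MC library was thus far above every library with a mimic of miR-125b or an isomiR, the Trim AG libraries were the lowest of all, and replicate 2 of Trim AGU stood above its group. *Tnnt2* fell by 2.83 on the log2 scale with miR-125b (SE 0.0389, 95% confidence interval -2.92 to -2.74, adjusted p = 4.7e-12). The fall with Trim AG was 18.6-fold (log2 -4.22, SE 0.0886, adjusted p = 6.4e-08). The slow skeletal *Tnnt1* (ENSRNOG00000028041, chromosome 1) fell less, from 27.5, 26.1 and 26.7 CPM with MC to 9.52, 10.6 and 10.0 CPM with miR-125b, 2.60-fold (adjusted p = 2.5e-08). Over the 5 mimics its log2 changes against MC ran from -1.54 to -1.25. The fast skeletal *Tnnt3* (ENSRNOG00000020332, chromosome 1) went from 86.7, 82.0 and 86.5 CPM with MC to 37.2, 32.6 and 35.0 CPM with miR-125b (log2 -1.25, SE 0.0518, adjusted p = 8.6e-09). With Trim AG it was at 20.5, 13.02 and 16.7 CPM, a fall of 4.87-fold (adjusted p = 3.6e-06), and no Trim AG library reached the lowest library of miR-125b.

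Among the inhibitory subunits, *Tnni1* and *Tnni2* fell with every mimic, whereas the cardiac *Tnni3* did not pass the test with any mimic. *Tnni1* (ENSRNOG00000009073, chromosome 13), the slow skeletal and fetal form, was at 39.2, 37.9 and 40.2 CPM with MC and at 4.61, 3.97 and 3.16 CPM with miR-125b, which is 9.75-fold lower (adjusted p = 1.2e-09). With Trim AGU the libraries held 6.94, 9.07 and 7.75 CPM, so that *Tnni1* was above the libraries of miR-125b and the other isomiRs, yet 4.44-fold below MC (adjusted p = 0.00073). The fast skeletal *Tnni2* (ENSRNOG00000020276, chromosome 1) was at 17.8, 19.5 and 18.9 CPM with MC. It held 1.99, 2.16 and 2.97 CPM with miR-125b, 1.57, 2.12 and 1.62 with Plus A and 1.32, 1.33 and 0.956 with Trim A. Trim AG took it to 0.605, 0.651 and 0.352 CPM, the lowest levels of any troponin gene, and Trim AGU to 0.907, 1.32 and 1.03 CPM. The fall of *Tnni2* was 7.66-fold with miR-125b (adjusted p = 2.9e-08) and 33.3-fold with Trim AG (log2 -5.06, 95% confidence interval -5.52 to -4.60, adjusted p = 6.3e-07). *Tnni3* (ENSRNOG00000018250, chromosome 1) was at 1.79, 2.62 and 1.41 CPM with MC and at 1.99, 2.10 and 2.32 CPM with miR-125b. Its groups overlapped in all 5 comparisons, and the log2 changes ran from -0.48 with Trim A (95% confidence interval -1.22 to 0.25) to 0.39 with Trim AGU (-0.50 to 1.28). *Tnni3* overlaps *Dnaaf3* (ENSRNOG00000038600) on the same strand, so its few counts are uncertain.

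The calcium-binding subunits differed in how far they fell. *Tnnc1* (ENSRNOG00000018943, chromosome 16), the form of slow and cardiac muscle, was at 212, 201 and 207 CPM with MC and at 146, 145 and 146 CPM with miR-125b (log2 -0.47, SE 0.0306, adjusted p = 2.7e-07), a difference under the 1.5-fold rule although the groups did not overlap. The fall reached 1.55-fold with Trim AG (106, 151 and 123.4 CPM, adjusted p = 0.0026), and without replicate 1 of Hypoxia Trim AG it was -0.51 on the log2 scale and no longer called. With Trim AGU the libraries had 92.1, 198 and 120.2 CPM, and the log2 change of -0.42 (adjusted p = 0.33) became -0.88 and called (adjusted p = 0.00053) without replicate 2 of Hypoxia Trim AGU. *Tnnc2* (ENSRNOG00000015155, chromosome 3, minus strand), the fast skeletal form, was at 93.7, 87.5 and 87.9 CPM with MC and at 20.8, 20.3 and 22.2 CPM with miR-125b, 4.14-fold lower (adjusted p = 2.2e-10). Plus A gave 15.2, 20.4 and 21.0 CPM, and Trim A 18.4, 25.3 and 25.6 CPM. With Trim AG it was at 41.5, 50.9 and 55.0 CPM and with Trim AGU at 34.3, 42.3 and 41.3 CPM, so that in these groups, which did not overlap with miR-125b, *Tnnc2* was closest to MC. Its log2 change against MC was -0.80 with Trim AG (adjusted p = 0.00028) and -1.04 with Trim AGU (adjusted p = 0.0035).

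Some of the troponin genes were neighbours on the same strand. *Tnni1* and *Tnnt2* lay 25698 bases apart on chromosome 13, *Tnni2* and *Tnnt3* 54969 bases apart on chromosome 1, and *Tnni3* and *Tnnt1* 2781 bases apart on chromosome 1. The closest pair had unlike values, since *Tnnt1* was called under all 5 mimics against MC and *Tnni3* under none.

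Promoters of *Tnnt2*, *Tnni2* and *Tnnc2* are shown because, along with *Tnnt3*, they were the members called between Trim AG and miR-125b under hypoxia. Each window is the 250 bases before a start of the gene in RefSeq (GRCr8), 5′ to 3′ on the strand of the gene, and the *Tnnt2* window is that of the first of its 2 starts in the table. Capitals mark matches on either strand of the E-box CANNTG, the site of myogenic factors such as MyoD and myogenin, of the MCAT motif CATTCC of TEAD factors, and of the TATA motif TATAAA.
Tnnt2, chr13:49818873-49819122, plus strand: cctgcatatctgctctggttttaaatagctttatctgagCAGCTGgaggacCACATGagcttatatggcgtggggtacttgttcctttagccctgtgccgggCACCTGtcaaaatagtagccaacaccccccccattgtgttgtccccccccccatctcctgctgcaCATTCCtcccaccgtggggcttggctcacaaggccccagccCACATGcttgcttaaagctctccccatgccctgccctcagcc
Tnni2, chr1:207024240-207024489, plus strand: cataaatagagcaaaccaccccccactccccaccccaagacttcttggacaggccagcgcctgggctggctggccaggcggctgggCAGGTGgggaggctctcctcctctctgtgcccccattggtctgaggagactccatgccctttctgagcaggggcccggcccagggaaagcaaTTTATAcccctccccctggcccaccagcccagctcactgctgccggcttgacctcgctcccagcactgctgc
Tnnc2, chr3:173935340-173935589, minus strand: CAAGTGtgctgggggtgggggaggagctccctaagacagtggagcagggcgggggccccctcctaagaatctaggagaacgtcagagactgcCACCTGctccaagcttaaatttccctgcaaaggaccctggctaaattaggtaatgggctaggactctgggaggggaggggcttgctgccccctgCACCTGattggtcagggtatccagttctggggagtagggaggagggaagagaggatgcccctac
The *Tnnt2* window held 4 E-box matches and an MCAT match 83 to 78 bases before the start. *Tnni2* had 1 E-box match, 164 to 159 bases before its start, and *Tnnc2* had 3. Windows were found for 6 members (7 windows) and none for *Tnnt3* and *Tnnc1*. An E-box match was in 6 of the 7 windows and in 65.5% of all 33469 RefSeq windows, a TATA match in 2 (*Tnnt1* and *Tnni2*) and in 12.9% of all, and an MCAT match in 1 and in 12.1% of all. The CArG and MEF2 motifs were in 0 of the 7 windows and in 1.497% and 2.96% of all windows. No matches of different motifs overlapped in the members, and a match is a description of letters only.

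The second question was whether the isomiRs differed from miR-125b itself. Under hypoxia, 4 isomiRs were compared with miR-125b over the 8 genes, and 6 of the 32 pairs were called. With Plus A 0 members were called, against 2.03% of all genes, while edgeR gave an unadjusted p below 0.05 for 2 members (*Tnnt2* and *Tnnc1*) and DESeq2 called 0. The 95% confidence intervals for Plus A against miR-125b were 0.04 to 0.30 for *Tnnt2*, -0.94 to 0.06 for *Tnni2* and -0.44 to 0.08 for *Tnnc2* on the log2 scale. With Trim A 0 were called, against 0.873% of all genes, 3 had an unadjusted p below 0.05 in edgeR, and DESeq2 called 1, *Tnni2*. That gene was 1.97-fold lower with Trim A (adjusted p = 0.074 in edgeR and 0.023 in DESeq2), and the call was also made without replicate 1 of Hypoxia Trim A (adjusted p = 0.012). The fold rule alone kept *Tnnc1* with Plus A (log2 0.20, adjusted p = 0.0072) and *Tnnt2* with Trim A (log2 -0.50, adjusted p = 0.016) from being called, and in neither case did the libraries overlap with those of miR-125b.

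Trim AG had 4 of 8 members called against miR-125b under hypoxia, against 19.3% of all genes. *Tnnt2* was 2.63-fold lower than with miR-125b (log2 -1.40, SE 0.0785, adjusted p = 1.9e-05). *Tnnt3* was 2.07-fold lower (adjusted p = 0.0008) and *Tnni2* 4.37-fold lower (log2 -2.13, 95% confidence interval -2.80 to -1.45, adjusted p = 0.0009). *Tnnc2* went the other way, 2.36-fold higher (log2 1.24, SE 0.114, adjusted p = 0.00013). For these 4 genes no Trim AG library overlapped with a miR-125b library. The same held for *Tnnt1*, which was not called (8.06 to 9.44 CPM with Trim AG, 9.52 to 10.6 CPM with miR-125b). How many of all genes were separated in this way was not counted. In edgeR 7732 of the 15305 genes tested had an unadjusted p below 0.05 here, so such separation alone does not set these members apart. *Tnni1* had a log2 difference of 0.03 (95% confidence interval -0.36 to 0.42).

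With Trim AGU 2 members were called, against 3.75% of all genes. *Tnni1* was 2.18-fold higher than with miR-125b (adjusted p = 0.049) and *Tnnc2* 2.00-fold higher (adjusted p = 0.020). Neither call depended on replicate 1 or 2 of Hypoxia Trim AGU, but without replicate 1, 2 or 3 of Hypoxia miR-125b or replicate 3 of Hypoxia Trim AGU the adjusted p was 0.14 to 0.25 for *Tnni1* and 0.099 to 0.15 for *Tnnc2*. Without replicate 2 of Hypoxia Trim AGU, *Tnnt3* (log2 -0.60, adjusted p = 0.0049) and *Tnni2* (log2 -1.26, adjusted p = 0.018) were called lower.

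Under normoxia the same 4 comparisons gave 10 called pairs of 32, all of them higher than miR-125b. *Tnnt2* was at 12.9, 9.22 and 12.9 CPM with miR-125b and at 9.73, 12.01 and 15.1 CPM with Plus A. Trim A libraries held 23.0, 43.7 and 24.2 CPM, Trim AG libraries 22.2, 40.2 and 25.8 CPM, and Trim AGU libraries 19.99, 36.8 and 23.7 CPM. All libraries of the 3 trimmed isomiRs were above all those of miR-125b and Plus A, the opposite order to that of Trim AG and Trim A under hypoxia. The log2 difference of *Tnnt2* from miR-125b was 1.39 with Trim A (SE 0.241, adjusted p = 0.027), 1.29 with Trim AG (SE 0.221, adjusted p = 0.0017) and 1.19 with Trim AGU (SE 0.22, adjusted p = 0.0045). *Tnnc2* was at 42.8, 28.3 and 32.1 CPM with miR-125b and at 96.6, 117.9 and 108 CPM with Trim AG, 3.02-fold higher (log2 1.60, SE 0.142, adjusted p = 4.8e-05). The Trim AG libraries were the only group in which *Tnnc2* exceeded its level in every Hypoxia MC library. *Tnnt1* held 14.1, 10.7 and 9.14 CPM with miR-125b and 20.7, 28.9 and 23.7 CPM with Trim AG, 2.09-fold higher and with no overlap (adjusted p = 0.0013).

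With Trim A in normoxia 3 members (*Tnnt1*, *Tnnt2* and *Tnnc2*) were called, all higher, against 0.414% of all genes and 0.367% called higher. These calls were close to the threshold. Only leaving out replicate 1 of Normoxia miR-125b kept all 3, and without any other library the adjusted p was 0.074 to 0.17 for *Tnnt1*, 0.051 to 0.078 for *Tnnt2* and 0.075 to 0.19 for *Tnnc2*. With Trim AG 4 members were called, against 13.9% of all genes and 7.58% called higher, the fourth being *Tnni1* (log2 0.845, adjusted p = 0.0057). With Trim AGU 3 members (*Tnnt2*, *Tnni1* and *Tnni3*) were called, against 11.4% of all genes and 6.22% called higher. *Tnni3* was 1.88-fold higher there (3.43, 2.31 and 2.94 CPM against 1.37, 1.46 and 1.77 CPM, adjusted p = 0.018), and lost its call without replicate 1 or 2 of Normoxia miR-125b or replicate 1 or 3 of Normoxia Trim AGU (adjusted p = 0.055 to 0.065). *Tnni1* (log2 0.65, adjusted p = 0.038) lost its call without replicate 2 or 3 of Normoxia miR-125b or any Normoxia Trim AGU library (adjusted p = 0.066 to 0.14). *Tnnc2* with Trim AGU, 1.39-fold higher (adjusted p = 0.052), was called without replicate 1 of Normoxia miR-125b (log2 0.66, adjusted p = 0.013).

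With Plus A in normoxia 0 members were called, against 0.0% of all genes. Here edgeR gave an unadjusted p below 0.05 for 0 of the 8 members and 404 of all genes, and DESeq2 called 0 members and 1 gene. This comparison held both libraries that stood apart. Without them 166 genes (1.12% of those tested) were called but still 0 troponin genes, since the largest differences with an adjusted p below 0.05 stayed under 1.5-fold. They were 0.54 for *Tnnc1* (95% confidence interval 0.43 to 0.66, adjusted p = 0.00099), 0.56 for *Tnnc2* (0.38 to 0.74, adjusted p = 0.0059) and 0.53 for *Tnnt1* (0.25 to 0.82, adjusted p = 0.043) on the log2 scale, Plus A being higher. In those genes replicate 1 of Normoxia miR-125b was nearer to Plus A replicates 2 and 3, and replicate 1 of Normoxia Plus A nearer to miR-125b replicates 2 and 3. *Tnnc1*, for example, was at 275, 184 and 193 CPM with miR-125b and at 179, 266 and 275 CPM with Plus A.

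**Figure D3:**
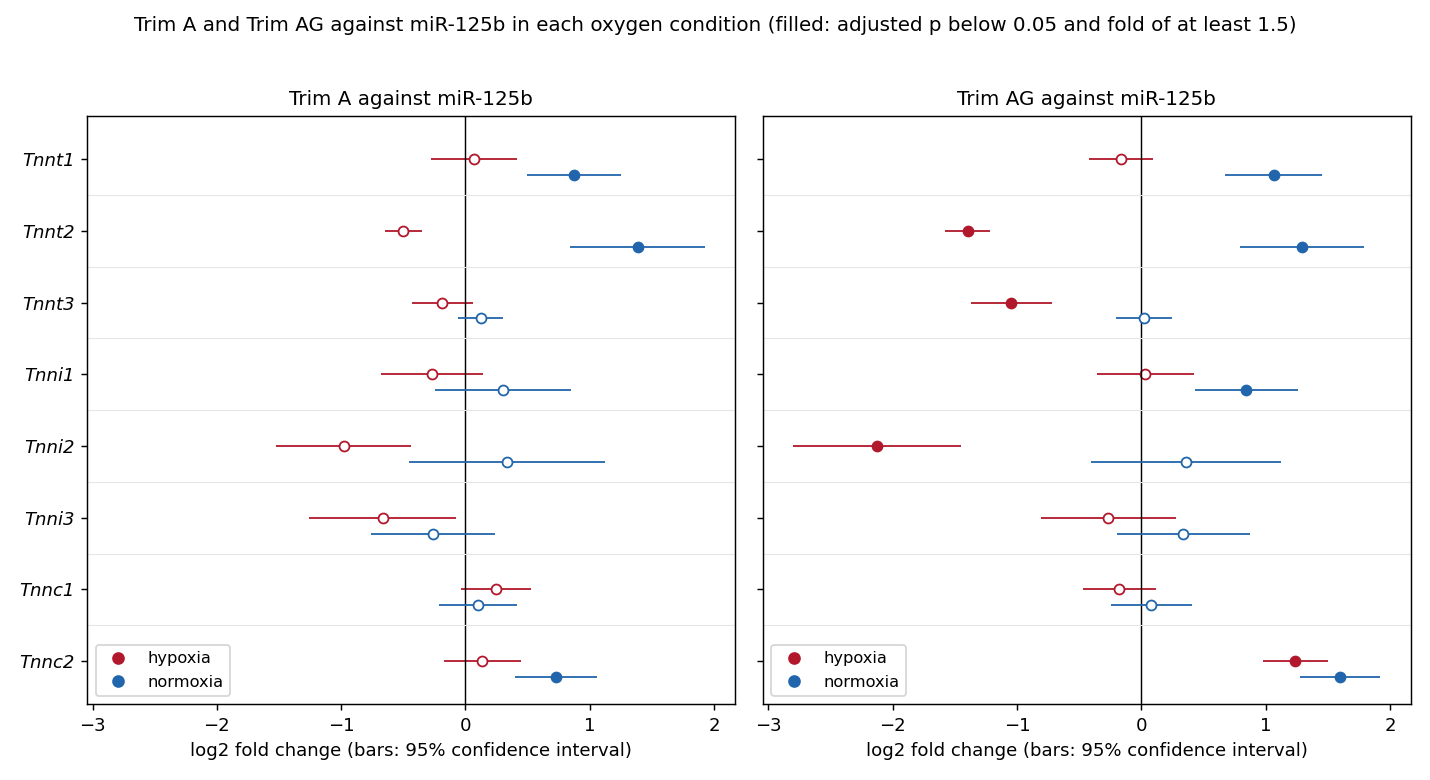
Log2 difference of Trim A (left) and Trim AG (right) from miR-125b for each troponin gene, under hypoxia (red) and normoxia (blue) on the horizontal axis, with 95% confidence intervals and filled points for called genes. *Tnnt2* with Trim AG lies at -1.40 under hypoxia and at 1.29 under normoxia, whereas *Tnnc2* with Trim AG lies above 0 in both.

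Whether the effect of an isomiR differed between oxygen conditions was tested directly, as the difference between its hypoxic and its normoxic log2 difference from miR-125b. With Plus A 0 members were called, against 0.0193% of all genes, and with Trim AGU 0, against 0.966%. An unadjusted p below 0.05 in edgeR was reached by 0 and 2 members, and DESeq2 called 0 in each. With Trim A 1 member was called, *Tnnt2* (log2 -1.88, SE 0.280, adjusted p = 0.018), against 0.605% of all genes. With Trim AG 5 members were called, against 11.3% of all genes. These were *Tnnt2* (-2.70, SE 0.257, adjusted p = 3.6e-05), *Tnni2* (-2.50, SE 0.477, adjusted p = 0.0032), *Tnnt1* (-1.24, adjusted p = 0.0022), *Tnnt3* (-1.08, adjusted p = 0.0016) and *Tnni1* (-0.83, adjusted p = 0.031). *Tnnc2*, higher with Trim AG in both conditions, had a difference of -0.37 (95% confidence interval -0.80 to 0.06), which was -0.56 (-0.92 to -0.20, adjusted p = 0.036) and under the fold rule without replicate 1 of Normoxia miR-125b. *Tnnt2* with Trim AGU had one of -1.10 (adjusted p = 0.15), which became -1.51 (adjusted p = 0.011) without replicate 2 of Hypoxia Trim AGU. Among the genes not called, *Tnnt1* with Trim A (-0.80, adjusted p = 0.097) was called without replicate 1 of Hypoxia Trim A (-0.66, adjusted p = 0.048), and *Tnni3* with Trim AG (-0.61, adjusted p = 0.21) without replicate 1 of Hypoxia Trim AG (-0.87, adjusted p = 0.049). The Trim A call on *Tnnt2* was lost without replicate 2 or 3 of Hypoxia miR-125b, replicate 3 of Hypoxia Trim A or replicate 1 or 2 of Normoxia miR-125b (adjusted p = 0.053 to 0.066). The Trim AG call on *Tnni1* was lost without replicate 1 or 2 of Hypoxia miR-125b, replicate 3 of Hypoxia Trim AG, replicate 2 or 3 of Normoxia miR-125b or replicate 2 or 3 of Normoxia Trim AG (adjusted p = 0.057 to 0.081).

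The third question was how hypoxia, with its medium, changed the troponin genes under each mimic. With miR-125b 6 members were called, against 20.9% of all genes. *Tnnt2* was 3.40-fold higher under hypoxia (log2 1.77, SE 0.116, adjusted p = 2.9e-06), *Tnni1* 1.86-fold (adjusted p = 0.0051), *Tnni2* 1.85-fold (adjusted p = 0.013) and *Tnnt3* 1.68-fold (adjusted p = 3.5e-05). The troponin C genes were lower, *Tnnc1* by 1.58-fold (adjusted p = 0.0025) and *Tnnc2* by 1.73-fold (adjusted p = 0.0011). *Tnni2* lost its call without replicate 3 of Hypoxia miR-125b (log2 0.69, adjusted p = 0.060), and *Tnnc1* fell under the fold rule without replicate 1 of Normoxia miR-125b (log2 -0.46, adjusted p = 6.7e-06).

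With Plus A 4 members were called, against 22.8% of all genes. *Tnnt2* was 3.60-fold higher under hypoxia (adjusted p = 6.1e-06) and *Tnnt3* 1.68-fold (adjusted p = 1.8e-05), while *Tnnc2* was 2.32-fold lower (adjusted p = 9.2e-05) and *Tnnc1* 1.53-fold lower (adjusted p = 0.0054). The *Tnnc1* change was under 1.5-fold without replicate 2 or 3 of Normoxia Plus A (log2 -0.54 and -0.51). Without replicate 1 of that group *Tnnt1* was called (log2 -0.63, adjusted p = 0.025), and *Tnni3* was called without replicate 2 of Hypoxia Plus A (log2 0.79, adjusted p = 0.046). With Trim A 2 of the 8 members were called, a share near the 26.5% of all genes. *Tnnt1* was 2.07-fold lower under hypoxia (adjusted p = 0.00099) and *Tnnc2* 2.59-fold lower (adjusted p = 0.00014). *Tnnt2* had a log2 difference of -0.11 there (95% confidence interval -0.61 to 0.38).

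With Trim AG 5 members were called, all lower under hypoxia, against 32.8% of all genes. Of the 15256 genes tested, 2719 were called lower. *Tnni2* was 2.97-fold lower (adjusted p = 0.0075), *Tnnt1* 2.75-fold (adjusted p = 3.4e-05), *Tnnc2* 2.17-fold (adjusted p = 7.5e-05), *Tnnt2* 1.86-fold (adjusted p = 0.0039) and *Tnnc1* 1.86-fold (adjusted p = 0.00061). *Tnnt2* was thus higher under hypoxia with miR-125b and lower with Trim AG, and the interaction given above is the test of that difference. With Trim AGU 2 of the 8 members were called, a share near the 27.0% of all genes. *Tnni1* was 2.62-fold higher under hypoxia (adjusted p = 0.0046) and *Tnnt3* 1.66-fold higher (adjusted p = 0.028). The *Tnnt3* call was lost without replicate 2 of Hypoxia Trim AGU (log2 0.53) or any Normoxia Trim AGU library (adjusted p = 0.079 to 0.11). Without replicate 2 of Hypoxia Trim AGU *Tnnc1* was called lower (log2 -0.83, adjusted p = 0.0013). *Tnnt2* was at 19.99 to 36.8 CPM under normoxia and 32.4 to 54.3 CPM under hypoxia with this mimic, which overlapped. These comparisons share libraries with those against MC and against miR-125b, so their values are not independent of them.

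**Figure D4:**
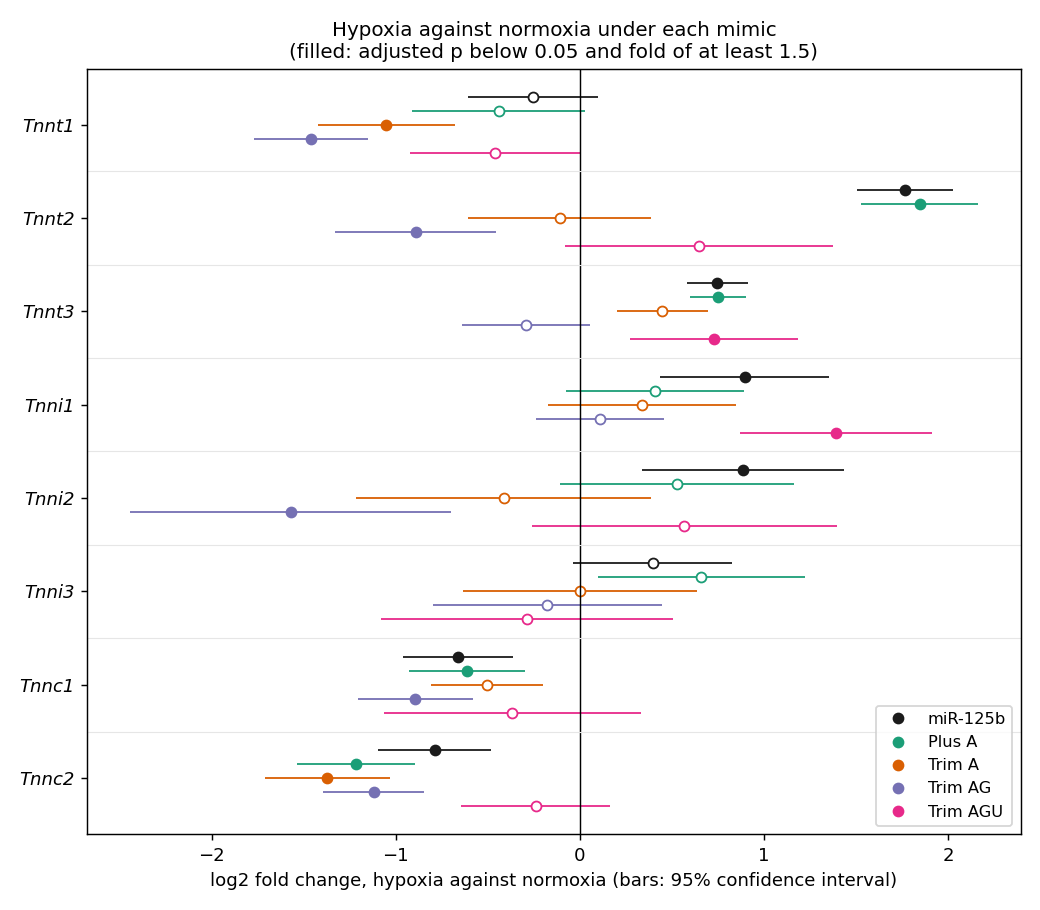
Log2 difference of hypoxia from normoxia for each troponin gene under each of the 5 mimics, with 95% confidence intervals and filled points for called genes. *Tnnt2* runs from 1.85 with Plus A to -0.89 with Trim AG, and *Tnnc2* lies below 0 with every mimic, although its interval with Trim AGU crosses 0.

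The trimmed isomiRs were also compared where they differ by 1 base. Under hypoxia, removal of the second base (Trim AG against Trim A) was accompanied by 4 called members, against 9.43% of all genes. *Tnnt2* was 1.87-fold lower (log2 -0.90, SE 0.0936, adjusted p = 0.0011), *Tnnt3* 1.82-fold lower (adjusted p = 0.013), *Tnni2* 2.22-fold lower (adjusted p = 0.0496) and *Tnnc2* 2.14-fold higher (adjusted p = 0.0044). The *Tnni2* call was lost without any 1 library (adjusted p = 0.062 to 0.17), and that of *Tnnt3* without replicate 3 of Hypoxia Trim AG (adjusted p = 0.059). For the third base (Trim AGU against Trim AG) 0 members were called, against 0.436% of all genes. In edgeR 4 members had an unadjusted p below 0.05 there, and DESeq2 called 2, *Tnnt2* and *Tnni1*. *Tnnt2* was 2.72-fold higher with Trim AGU (95% confidence interval 0.85 to 2.05 on the log2 scale, adjusted p = 0.070), and without replicate 2 of Hypoxia Trim AGU it was called (log2 1.10, adjusted p = 0.0087), as was *Tnni1* (log2 0.92, adjusted p = 0.033).

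Under normoxia the second base gave 1 called member of 8, a share near the 9.14% of all genes. It was *Tnnc2*, 1.82-fold higher with Trim AG (adjusted p = 0.00019). *Tnni1* was called without replicate 2 of Normoxia Trim A (log2 0.78, adjusted p = 0.015), and *Tnni3* without replicate 3 of Normoxia Trim AG (log2 0.77, adjusted p = 0.038). For the third base 2 members were called, both lower with Trim AGU, against 2.84% of all genes. *Tnnc2* was 2.17-fold lower (96.6, 117.9 and 108 CPM against 52.2, 41.0 and 50.7 CPM, adjusted p = 0.0015) and *Tnnt1* 1.64-fold lower (adjusted p = 0.035). The *Tnnt1* call was lost without replicate 1, 2 or 3 of Normoxia Trim AG or replicate 1 or 3 of Normoxia Trim AGU (adjusted p = 0.057 to 0.12).

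The make-up of each subunit changed along with its level. Troponin T genes summed to 335 ± 6.5 FPKM (SD, n = 3) in Hypoxia MC, to 73.3 ± 2.0 FPKM with miR-125b and to 36.3 ± 1.7 FPKM with Trim AG. Of that sum *Tnnt2* made up 71.0% ± 1.3 with MC, 45.6% ± 0.91 with miR-125b, 35.3% ± 3.9 with Trim AG and 24.8% ± 2.9 in Normoxia miR-125b. *Tnnt2* was thus the main troponin T gene by FPKM in Hypoxia MC, and *Tnnt3* had the larger mean share in Hypoxia Trim AG, at 40.1% ± 6.7. In replicate 2 of Hypoxia Trim AG, however, *Tnnt2* was above *Tnnt3* (13.5 and 11.6 FPKM). *Tnnt3* had the larger mean share in Hypoxia Trim A as well, at 43.5% against 39.2% for *Tnnt2*. Troponin I genes summed to 40.7 ± 0.61 FPKM with MC and 6.78 ± 0.15 FPKM with miR-125b under hypoxia. The share of *Tnni3* in troponin I went from 5.56% ± 1.7 to 37.8% ± 3.3 between them, while its own level did not pass the test. In Normoxia Trim AGU it was 55.4% ± 6.1. The fast form *Tnnc2* made up 32.3% ± 0.43 of troponin C in Hypoxia MC, 13.7% ± 0.51 with miR-125b, 10.8% ± 1.5 with Plus A and 12.8% ± 0.088 with Trim A. With Trim AG and Trim AGU the share was 29.9% ± 3.0 and 25.1% ± 5.4. In normoxia it was 14.8% ± 0.57 with miR-125b and 33.1% ± 0.81 with Trim AG. Shares are given as a description, with no test.

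**Figure D5:**
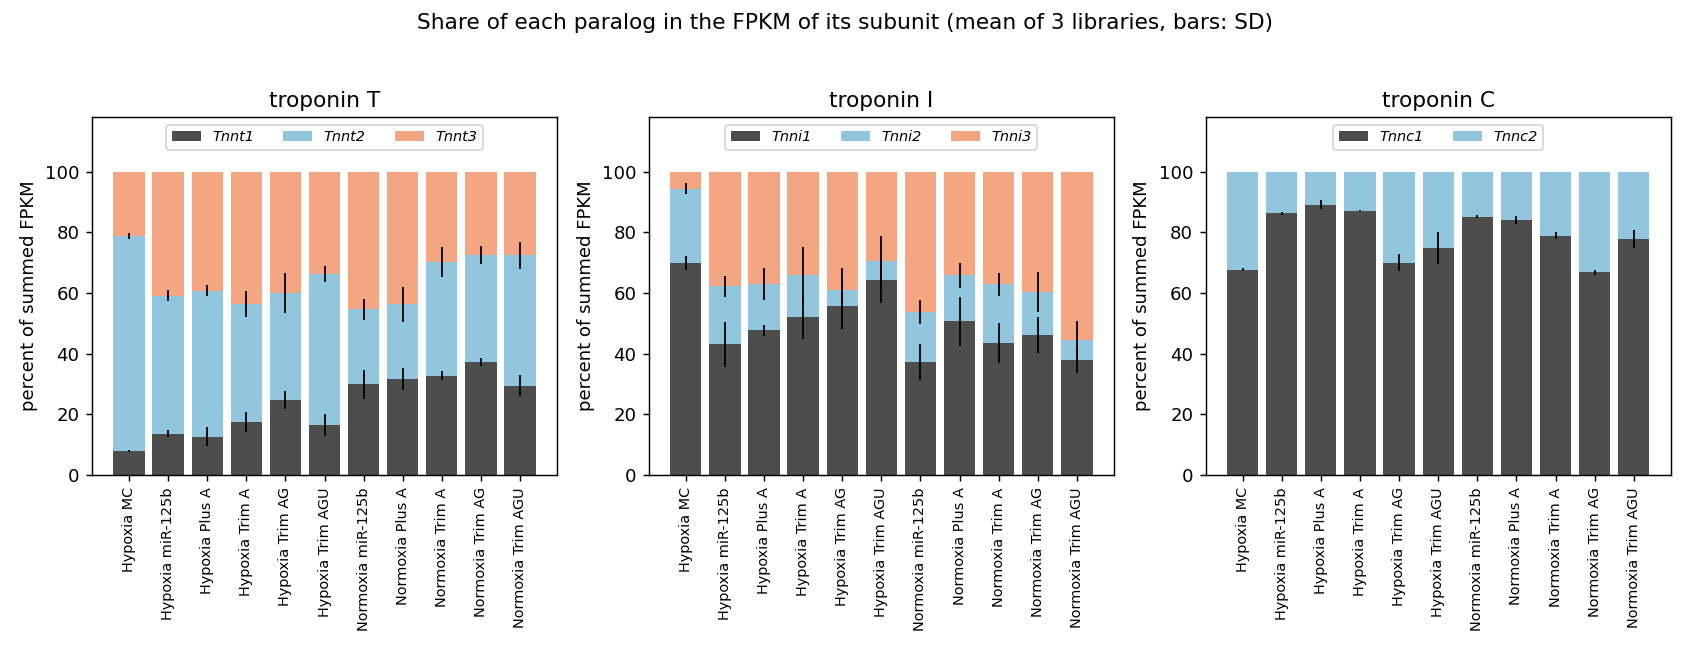
Share of each paralog (percent of summed FPKM, vertical axis from 0 to 100) within troponin T, troponin I and troponin C, as the mean of 3 libraries in each of the 11 groups, with SD as lines. *Tnnt2* takes 71.0% of troponin T in Hypoxia MC and 24.8% in Normoxia miR-125b.

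Across all 11 groups the ratio of the highest to the lowest mean level was 34.9 for *Tnni2*, 26.3 for *Tnnt2*, 19.7 for *Tnni1*, 5.70 for *Tnnc2*, 5.53 for *Tnnt3*, 3.03 for *Tnnt1*, 2.49 for *Tnni3* and 1.89 for *Tnnc1*. Hypoxia MC had the highest mean for *Tnnt1*, *Tnnt2*, *Tnnt3*, *Tnni1* and *Tnni2*. For *Tnnt1* it overlapped with the next group, Normoxia Trim AG (means of 26.8 and 24.4 CPM). Below Hypoxia MC the levels formed a near continuous order. For *Tnnt2* the neighbours in the order that did not overlap were Hypoxia MC over Hypoxia Plus A, that group over Hypoxia miR-125b, and Normoxia Trim AGU over Hypoxia Trim AG, and the other 7 neighbouring pairs overlapped. For *Tnni3* all 10 neighbouring pairs overlapped. *Tnnc2* was highest in Normoxia Trim AG, at 107 ± 10.7 CPM (SD, n = 3), above Hypoxia MC at 89.7 ± 3.4 CPM. *Tnnc1* was highest in Normoxia Plus A at 239.7 ± 53 CPM, a group that holds a library standing apart.

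For normoxic MC the authors' group means of Normoxia Plus A against Normoxia MC were read, with no library values, error or test. MC was the higher in all 8 genes. The authors' mean of *Tnnt2* was 366 with Plus A and 2571 with MC, a ratio of 7.03. The ratio of MC to Plus A was 3.63 for *Tnni1*, 3.00 for *Tnni2*, 2.45 for *Tnnt1*, 2.02 for *Tnnc2*, 1.79 for *Tnni3*, 1.44 for *Tnnt3* and 1.16 for *Tnnc1*. The Plus A mean includes the library that stood apart.

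The genes whose pattern was most like that of each member were found by the Pearson correlation of mean log2(CPM + 0.5) over the 11 groups, among the 12314 genes whose mean level was 1 CPM or more. These groups share mimics and oxygen, so the values are a description. For every similar gene named, r over single libraries was lower, down to 0.651 for *Neu3* with *Tnnc1* and 0.623 for *Med24* with *Tnni3*. Spearman's correlation over groups ran from 0.7455 for *Actc1* with *Tnni1* to 0.9727 for *Ank1* with *Tnnc1*. For *Tnni1* the closest were *Mylpf*, the fast skeletal regulatory light chain (r = 0.989), and the cardiac actin *Actc1* (0.963), both sarcomere genes, followed by *Dpep2* (0.962). For *Tnnt3* they were *Gdpd1* (0.989), *Stac3*, a component of excitation-contraction coupling in skeletal muscle (0.986), and *Adamts15* (0.9747). *Tnnt2* was closest to *Ccnl2* (0.969), *Lrsam1* (0.964) and *Ikbkb* (0.963), and *Tnni2* to AABR07030366.1 (0.985), LOC100912573 (0.983) and *Filip1* (0.979). Among the genes closest to *Tnnt1* were *Tmem252* (0.925) and *Bcl7a* (0.917). *Tnnc1* was closest to *Neu3* (0.966), *Apbb1* (0.949) and *Ank1* (0.946), *Tnnc2* to *Prss23* (0.961), *Slmo2* (0.951) and LOC100910255 (0.948), and *Tnni3* to *Med24* (0.845), *Srsf4* (0.814) and *Daxx* (0.807). Among the members, *Tnnt2*, *Tnnt3*, *Tnni1* and *Tnni2* had r of 0.811 to 0.924 with each other. These values took places 54 to 578 in the order of genes most like each of them, so many other genes were closer. Of the members, *Tnnt1* was nearer to the troponin C genes, with r of 0.827 to *Tnnc2* and 0.701 to *Tnnc1*. In its order these were at places 146 and 804.

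The other thin filament genes, a list of 17 with 15 tested in nearly every comparison, moved in both directions against MC under hypoxia. With miR-125b 3 were called higher and 5 lower, with a list median of -0.27 on the log2 scale. The largest falls were *Actc1*, the cardiac actin (log2 -4.47), and *Acta1*, the skeletal actin (-3.10), and the largest rises *Tmod4*, a pointed-end capping protein (1.18), and *Acta2*, the smooth muscle actin (0.89). Plus A had 2 higher and 6 lower, Trim A 4 and 5, Trim AG 5 and 3, and Trim AGU 4 and 4. *Actc1* was the gene with the largest fall under each of them, at -5.77, -6.78, -6.44 and -4.58. It was followed by *Acta1* with Plus A (-2.69) and by *Lmod3*, an actin nucleator of skeletal muscle, with Trim A (-2.53), Trim AG (-2.42) and Trim AGU (-2.18). The largest rises were *Tmod4* and *Acta2* with Plus A (1.35 and 0.83) and with Trim A (1.26 and 1.07), *Acta2* and *Lmod1* with Trim AG (1.495 and 1.43), and *Acta2* and the tropomyosin gene *Tpm2* with Trim AGU (1.33 and 1.23). *Actc1* was thus lower under all 5 mimics, whereas *Acta1* with Trim AG had a log2 change of 0.013 (adjusted p = 0.92). Levels of *Actc1* ran from 0.066 to 35.0 CPM over the libraries. Its low levels rest on few counts, so the size of its changes is uncertain. Of all genes, 21.9% (miR-125b) to 37.2% (Trim AG) were called against MC under hypoxia. Those called lower made up 12.4% (Trim AGU) to 20.2% (Trim AG).

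Against miR-125b under hypoxia, Trim AG had 7 thin filament genes higher, led by *Acta1* (3.11) and *Lmod1* (1.24), and 1 lower, *Actc1* (-1.98). Plus A had 0 and 1 (*Tpm3*, -0.88), Trim A 1 (*Acta1*, 0.77) and 1 (*Actc1*, -2.30), and Trim AGU 3 and 0, led by *Acta1* (1.84) and *Tpm1* (0.68). *Acta1* with Trim AG thus rose in the comparison in which *Tnnt2*, *Tnnt3* and *Tnni2* fell. Under normoxia Trim AG had 2 higher, *Acta1* (1.77) and *Actc1* (1.68), Trim A 1 higher (*Acta1*, 0.71), Trim AGU 1 higher (*Acta1*, 0.63) and 1 lower (*Tmod4*, -1.09), and Plus A 0 of 14 tested. Of all genes, 19.3% were called with Trim AG, 3.75% with Trim AGU, 2.03% with Plus A and 0.873% with Trim A under hypoxia. The normoxic shares were 13.9%, 11.4%, 0.0% and 0.414% in that order.

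Of the transcription factors listed for troponin and muscle genes (17, with 14 tested), 6 were lower with miR-125b than with MC under hypoxia and 0 higher, with a list median of -0.50 on the log2 scale. The largest falls were *Myog*, the myogenin of myoblast differentiation (log2 -2.42), and *Mef2a* (-0.90). Plus A had 1 higher (*Tead1*, 0.64) and 4 lower (led by *Myog*, -2.52), and Trim A 1 higher (*Tead1*, 0.67) and 7 lower (led by *Myog*, -3.02, and *Mef2c*, -1.07). Trim AG had 3 higher (led by *Srf*, 0.99, and *Tead1*, 0.88) and 7 lower (led by *Myog*, -4.90, and *Mef2c*, -1.51), and Trim AGU 0 higher and 7 lower (led by *Myog*, -3.02, and *Myocd*, -1.58). *Myog* was thus the factor with the largest fall under all 5 mimics and its steepest fall was with Trim AG. Among the members, *Tnnt1*, *Tnnt2*, *Tnnt3*, *Tnni2* and *Tnnc1* also had their lowest hypoxic mean with Trim AG. The others did not, as *Tnni1* (3.24 CPM) and *Tnni3* (1.34 CPM) were lowest with Trim A and *Tnnc2* (18.8 CPM) with Plus A. Against miR-125b under hypoxia, Trim AG had 2 higher (*Srf*, 1.07, and *Tead1*, 0.65) and 3 lower (led by *Myog*, -2.48, and *Mef2c*, -0.71), Trim AGU 2 lower (*Myod1*, -0.98, and *Myog*, -0.61), Trim A 1 lower (*Myog*, -0.60) and Plus A 0. Under normoxia *Srf* with Trim AG (0.63) was the 1 factor called over the 4 isomiRs. *Myog* is on the marker list of differentiated skeletal muscle too, so the counts of both lists share it. Shares of all genes called were 21.9% to 37.2% against MC and 0.873% to 19.3% against miR-125b under hypoxia. Against miR-125b under normoxia they were 0.0% to 13.9%. The lists were not tested against these shares.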

How the data were processed

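RNA sequencing of H9C2 gave 33 libraries with counts, 3 in each of 11 groups. The libraries were poly-A selected and not stranded. The submitters' processing notes name HISAT2 and StringTie, without a role, and the genome build is not given in the sources used here. The authors deposited 12 tables that each set 1 group against another, with raw counts per gene and library in 11. In these tables the authors also gave FPKM, counts scaled by gene length and library total, used here for levels between genes. The remaining table (Normoxia MC and Normoxia Plus A) holds the authors' group means, a normalized expression signal with no error. Columns of the authors' own DESeq2 test (log2 fold changes and p-values) were not used. A gene missing from a table was given 0 counts in the libraries of that table, which touched no troponin gene, and values shared between tables conflicted for 0 genes. Reads shared between paralogs were not tested.

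Python 3.11.15 with pandas 2.3.3 and NumPy 2.4.6 was used to join the tables, and figures were drawn with Matplotlib 3.10.9. Each comparison was fitted with edgeR 4.0.16 in R 4.3.3 across all genes with the quasi-likelihood test, after filterByExpr and TMM scaling, and only the compared groups entered a fit. Calls needed a Benjamini-Hochberg adjusted p below 0.05 and a fold of at least 1.5. Dividing a log2 fold change by the root of its F value gave the standard error, and intervals are 95% confidence intervals. The scripts were tested on simulated data. Alternatives were DESeq2 1.42.0, its size factors in edgeR, no filter, all libraries in 1 fit, a fold threshold of 2 or none, leaving out each library in turn, a block for replicate number, and both libraries that stood apart left out. For levels they were TMM-scaled CPM and FPKM, and for likeness Spearman's correlation and correlation over libraries. CPM scales a count to the library total, and totals of 28361216 to 42672584 limit the precision of *Tnni2* and *Tnni3* most.

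The members, the thin filament and transcription factor lists, the markers and the tests were chosen with earlier results of these data known. The genes named are the 8 members in every comparison, the 3 most similar genes for each, and up to 2 called genes a direction from each list, apart from some that are not reported here. *Cav1* was chosen after its values were seen. Protein and 3′ end sequences of the genes were not used here.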

Additional observations from a re-analysis of the deposited data

Results flagged for a closer look

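The effect of an isomiR against miR-125b differed between hypoxia and normoxia for 6 pairs of gene and isomiR, by the interaction in edgeR's quasi-likelihood test with Benjamini-Hochberg adjustment over all genes. With Trim AG it was -2.70 on the log2 scale for *Tnnt2* (adjusted p = 3.6e-05), -2.50 for *Tnni2* (adjusted p = 0.0032), -1.24 for *Tnnt1* (adjusted p = 0.0022), -1.08 for *Tnnt3* (adjusted p = 0.0016) and -0.83 for *Tnni1* (adjusted p = 0.031). With Trim A it was -1.88 for *Tnnt2* (adjusted p = 0.018). Of all genes, 11.3% were called for this interaction with Trim AG and 0.605% with Trim A. The calls on *Tnnt2* with Trim A and on *Tnni1* with Trim AG were each lost without certain single libraries, as given above. In all 6 pairs the isomiR was lower relative to miR-125b under hypoxia than under normoxia. The cause was not tested. No test of outlying libraries was run within groups of 3.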

How the results depend on the processing

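Of the 208 pairs of troponin gene and comparison tested, 79 were called, 52 of them under every alternative run and 27 not under at least 1. With DESeq2, its size factors, no filter or all libraries in 1 fit, 75 of the 79 stayed called under all of these. No called value changed direction. A fold threshold of 2 left 5 of 10 calls against miR-125b in normoxia, 9 of 19 between hypoxia and normoxia and 3 of 7 between trimmed isomiRs, as its construction implies, and fitting all libraries together gave 11 in place of 7 for the latter. Leaving out 1 library gave 30 to 32 calls against MC, 4 to 8 and 5 to 10 against miR-125b in hypoxia and normoxia, 18 to 20 between hypoxia and normoxia, 5 to 9 between trimmed isomiRs and 4 to 7 interactions. Groups share replicate numbers, and no label says that the numbers pair the libraries. Deviations of same-numbered libraries correlated at -0.31 to 0.53 (median -0.0018), and all 3 exceeded 0.1 in 1 of 55 pairs of groups. Among the hypoxic trimmed groups they correlated at 0.40 to 0.53 for replicate 1 and 0.24 to 0.37 for replicate 2. For replicate 3 of those groups the values were -0.065 to 0.077. Whether the trimmed groups shared a batch was not tested. With the replicate number as a block, 6 of the 10 calls against miR-125b in normoxia were left, 4 of 6 in hypoxia, 17 of 19 between hypoxia and normoxia and 5 of 6 interactions. The cause of these losses was not tested. Scaling by TMM moved group mean levels to 0.9504 to 1.06 times those in CPM. Depth limits *Tnni2* and *Tnni3*, whose low counts leave wide intervals.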
